A study of Drosophila melanogaster with 2 samples.

Results

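The 10 genes described here, N, Dl, Ser, Su(H), H, numb, neur, mam, fng and kuz, are core genes of the Notch pathway. They were picked by name as pathway genes, though earlier results of these data were known when they were chosen. They are 10 of 13968 protein-coding genes on the 7 chromosome arms. Chromatin immunoprecipitation with sequencing (ChIP-seq) with an antibody to GFP had been run on whole Drosophila melanogaster embryos of 0 to 24 hours from the transgenic strain CG4730-GFP, in which the CG4730 protein is fused to eGFP. There was 1 group with 2 biological replicates and no second condition, so where peaks lay could be described but no groups could be compared. Whole embryos mix all tissues and stages of that day, and a peak does not tell in which cells the protein lay. A gene was counted as having a peak where a summit, the highest point of a peak, lay inside it or within 1 kb of it. The pooled set of both replicates held 3571 peaks past the authors' threshold on the irreproducible discovery rate (IDR), which measures how well ranks agree between replicates or parts of the reads. The own sets of replicates 1 and 2 held 2309 and 2434. Signal is the authors' value per peak, with no stated unit. Peaks are compared within 1 list, or by the mean and SD over the ranked lists of the 2 replicates. Such an SD also holds any difference in scale between the 2 lists. The sources used here state no read depth.

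Notch signalling passes between touching cells. The ligands Delta (Dl) and Serrate (Ser) on a sending cell bind the receptor Notch (N) on its neighbour, the receptor is cut, and its inner part enters the nucleus and joins the DNA-binding protein Suppressor of Hairless, Su(H), with the co-activator Mastermind (mam). Without a signal, Hairless (H) ties Su(H) to co-repressors. In the embryo the pathway limits how many ectoderm cells become neuroblasts and, through numb, makes sister cells of sense organs and neurons differ.

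Of the members, 4 had a thresholded peak, and the sequence at the summits of 3 of them is shown first because the base composition there is returned to in the text. Each window holds the 50 bp to each side of the pooled summit, in dm6 coordinates, read from the NCBI RefSeq genome of this assembly. Capitals mark the longest run of A and T bases for N and neur and, for numb, the arms of an inverted repeat that spans the summit. The last sequence, with no capitals, is the window of the strongest peak at H, which did not pass the threshold; it has the lowest share of A and T among the strongest peaks of the 10 members.

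N, chrX:3162485-3162585, plus strand: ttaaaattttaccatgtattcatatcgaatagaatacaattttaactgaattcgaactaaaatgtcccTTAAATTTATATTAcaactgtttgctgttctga

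neur, chr3R:9031983-9032083, plus strand: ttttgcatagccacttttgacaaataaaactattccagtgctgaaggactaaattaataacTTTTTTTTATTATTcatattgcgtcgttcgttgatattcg

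numb, chr2L:9449591-9449691, plus strand: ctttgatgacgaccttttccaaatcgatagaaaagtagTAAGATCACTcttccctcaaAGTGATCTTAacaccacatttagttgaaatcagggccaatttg

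H, chr3R:20625830-20625930, plus strand: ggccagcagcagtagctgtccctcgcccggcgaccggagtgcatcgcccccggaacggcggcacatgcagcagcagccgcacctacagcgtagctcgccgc

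Of the bases in these windows, 75.2% were A or T at N, 70.3% at neur, 62.4% at numb and 27.7% at H. The mean over all 3551 pooled summits on the arms was 65.7 ± 10.3% (SD over summits). The A and T runs in capitals are 14 bp long at both N and neur and lie 18 to 31 bp and 11 to 24 bp from the summit. At numb the longest such run is 5 bp, against a median of 10 bp over all summits. The share of A and T did not separate members with and without a thresholded peak. Among those without, it was 76.2% at the strongest peak of fng and 74.3% at that of Dl, with runs of 12 and 13 bp, close to the 75.2% at N, and 58.4% at kuz, 55.4% at Su(H) and 43.6% at Ser.

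In all, 4 of 10 members had a pooled thresholded peak: N, neur, numb and mam held 9 peaks between them, of which mam alone held 6. By the same rule 22.7% of all protein-coding genes had a peak, and 47.8% of the 1985 that are at least 10 kb long. All 4 members with a peak are that long, as are 8 of the 10 members, so 4 of 8 stands beside 47.8%, and the members' share is close to that of other long genes. Neither of the shorter members, Su(H) and H, had a peak, beside 18.6% of coding genes under 10 kb. Per length the members carried 0.263 peaks per 10 kb of gene and window, against 0.266 for coding genes of at least 10 kb and 0.358 for all coding genes. The members' rate rests largely on mam, which held 6 of the 9 peaks. These shares are descriptions, and no test of the list was made.

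**Figure D1:**
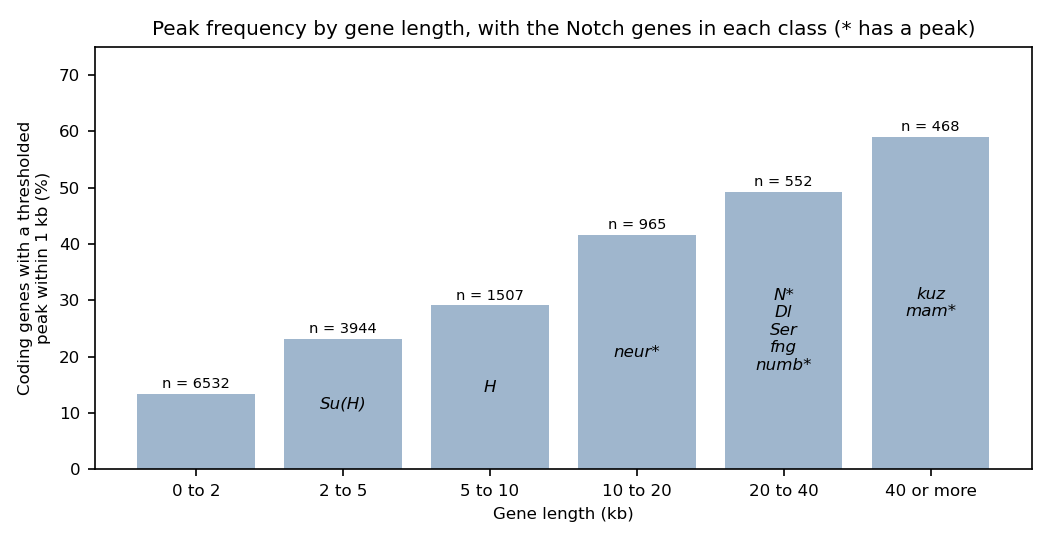
Bars give the percent of protein-coding genes with a thresholded pooled summit within 1 kb, by gene length in kb, with the number of genes above each bar and the Notch pathway genes of each class written inside it (an asterisk marks a gene with a peak). The share rises from 13.4% of genes under 2 kb to 59.0% of those of 40 kb or more, and the 5 members of 20 to 40 kb, of which 2 have a peak, stand in a class at 49.3%.

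Where a member had a peak, its strongest peak was well above the middle of the set. The pooled signal of these 4 strongest peaks ran from 269 at N to 309 at mam, with ranks from 323 to 430 of 3571, and the second peak at mam followed at 249 and rank 493. The median over all single pooled thresholded peaks, not over the strongest of each gene, was 108. Among these 5 peaks the signals lay close together. With the stronger pooled peaks alone, those above that median, the same 4 genes were found, and 31.3% of coding genes of at least 10 kb. Of the 949 coding genes of that length with any thresholded peak, 622 had such a stronger one. Both replicates' own sets placed a peak at each of the 4 genes. For coding genes of at least 10 kb that share was also 31.3%.

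**Figure D2:**
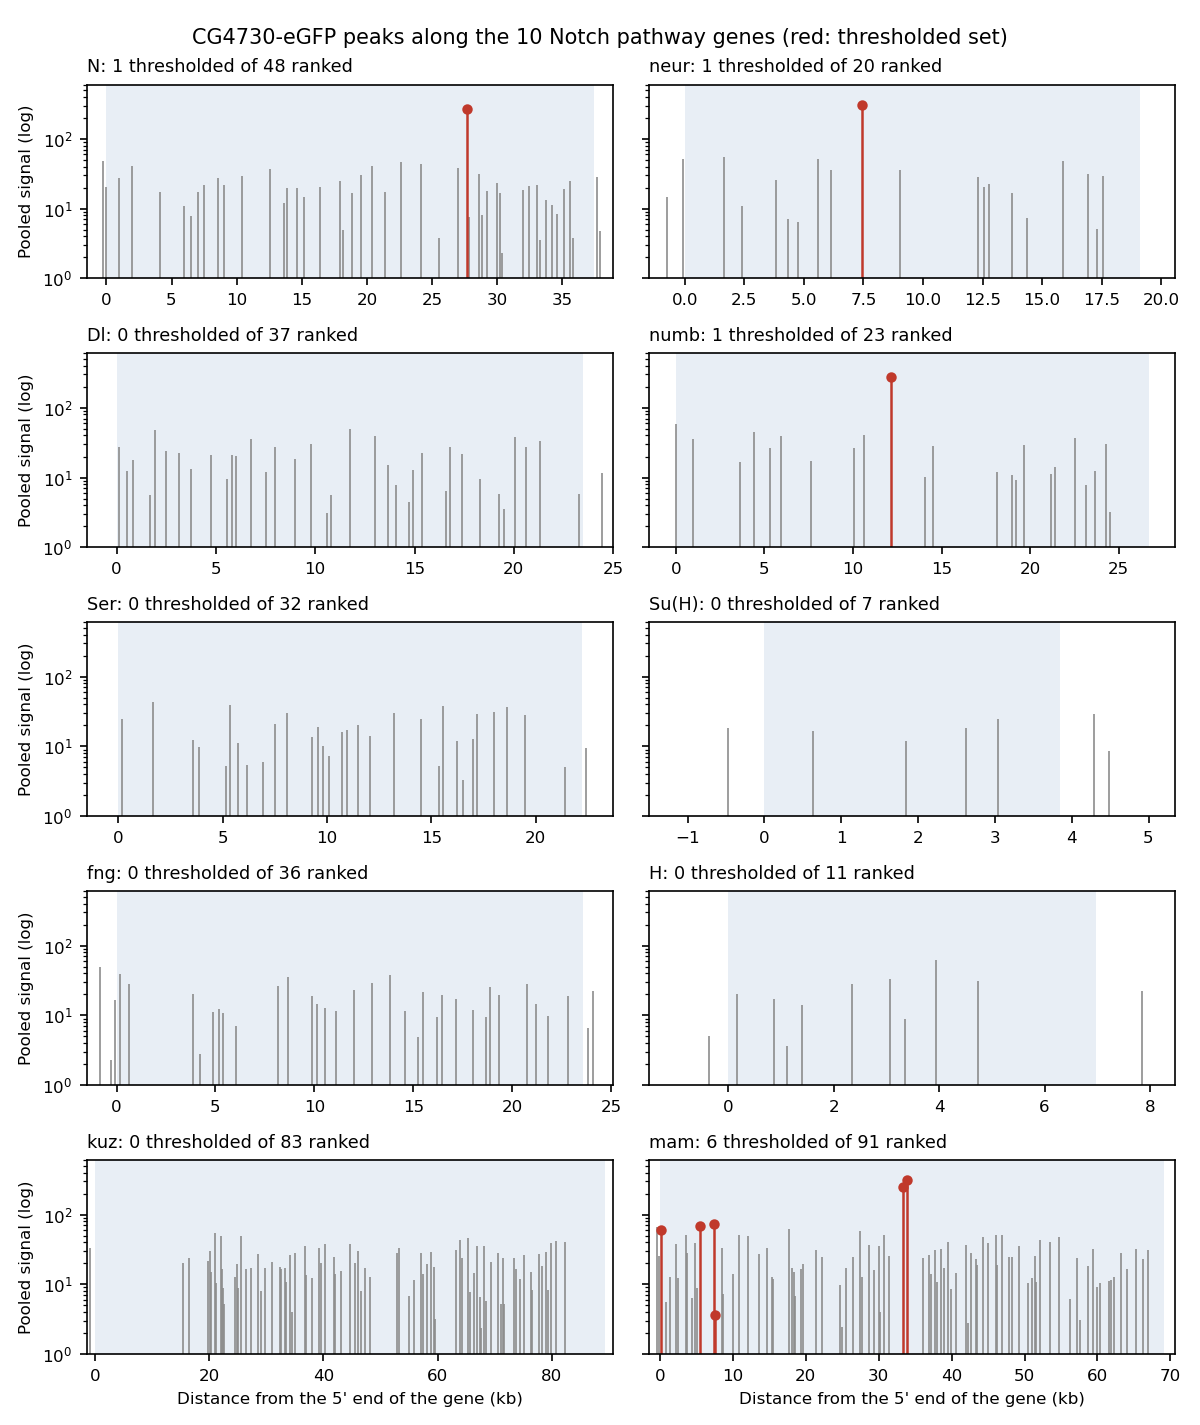
Each panel follows 1 gene from its 5' end (distance in kb, gene body shaded, with 1 kb to each side), and each line is a peak of the pooled ranked list at its summit with its pooled signal on a log axis. Red lines with dots are peaks of the thresholded set: 1 each in N, neur and numb, 6 in mam and none in the other genes, where the strongest ranked peak reached 29.6 to 61.9.

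The receptor gene N (FBgn0004647) spans 37.4 kb of X, from 3134870 to 3172221 on the plus strand, and has a single annotated start. Its thresholded peak, from 3162435 to 3162595, lay in an intron of 4245 bp, 27665 bp downstream of the start and 944 bp from the nearest exon. The closest annotated start of any gene, that of CG18508, was 10605 bp away. Over 10 kb from any start lay 262 of the 3551 pooled summits (7.38%), that of N among them. The signal was 124 in replicate 1 and 138 in replicate 2, a mean of 131 ± 9.83 (SD, n = 2), and the summits of the replicates were 26 bp apart. No peak near the start of N passed. The next strongest ranked peak of the gene lay there, at −0.264 kb, with a pooled signal of 47.65.

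Of the ligands' partners, neur (FBgn0002932) encodes the ubiquitin ligase Neuralized, which drives ligand endocytosis in the sending cell. It covers 3R from 9020348 to 9039471 on the minus strand. The peak from 9031937 to 9032098 lay in an intron of 9333 bp, 1698 bp downstream of the nearer of its 2 annotated starts, which is the internal one. Replicate 1 gave a signal of 160 and replicate 2 of 143, a mean of 151 ± 12 (SD, n = 2). The pooled rank was 337. No other gene's start lay nearer to the summit.

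The inhibitor gene numb (FBgn0002973; 2L, 9437469 to 9464184, plus strand) also has 2 starts, and its peak was at the internal one. From 9449471 to 9449810, it had its summit 189 bp upstream of that start, in an intron of the longer transcripts. It was at 153 in replicate 1 and 115 in replicate 2, a mean of 134 ± 26.6 (SD, n = 2). This was the widest spread between replicates among the 5 strong peaks. Near the first start, at the 5' end of the gene, the strongest ranked peak lay at 0.026 kb and had a pooled signal of 57.78, below the threshold set by IDR.

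Most of the peaks were at mam (FBgn0002643), the co-activator gene, which extends over 69.2 kb of 2R from 13991203 to 14060356 on the plus strand and has 3 starts. Of the 1985 coding genes of at least 10 kb, 36 (1.81%) held 6 or more peaks. Only 468 of these 1985 are of 40 kb or more, as mam is, and the share among them was not computed. A strong pair lay in an intron of 20481 bp, with summits 593 bp apart and 6533 and 7126 bp upstream of the last start. The closest annotated start of any gene was that of CG18371, 3490 and 4083 bp from these summits. The stronger, from 14025059 to 14025190, had signals of 161 and 147 in replicates 1 and 2 (mean 154 ± 10.4, SD, n = 2). For the other, from 14024496 to 14024593, they were 124 and 128 (mean 126 ± 2.77, SD, n = 2). The difference between these means was larger than either SD. Both peaks were in the own set of each replicate.

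The other 4 peaks at mam lay in its first 8 kb and were weak. At 13991287, in the 5' UTR and 84 bp downstream of the first start, the pooled signal was 59.9, and 5519 and 7359 bp downstream of that start it was 67.6 and 73.6. The ranks of these 3 were 2856 to 3365 of 3571. The last of the 4 had a signal of only 3.58 and rank 3551, with its summit 214 bp from the peak at 73.6, whose interval it overlaps, and both overlap the same replicate 2 peak of signal 43.2. Of the 4, the own set of replicate 2 held the peak 5519 bp downstream, at 44.4, and the own set of replicate 1 held none. In the ranked list of replicate 1 that peak was at 25.3, with an IDR of 0.301. The peak in the 5' UTR had IDRs of 0.866 and 0.805 in the ranked lists of replicates 1 and 2. At the peaks of 73.6 and 3.58, the ranked list of replicate 1 held no overlapping peak. None of the 4 was in the conservative set, while both strong peaks of mam were. The count of 6 therefore falls to 2 in replicate 1's own set and 3 in replicate 2's.

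The ligand genes had no thresholded peak in any of the 4 sets. At Dl (FBgn0000463, named Delta in the annotation; 3R, 19302731 to 19326217) the strongest pooled ranked peak had a signal of 49.6, rank 8152 of 143047 and a global IDR of 0.236. Replicates 1 and 2 scored it at 23.8 and 26.7, and replicate 1's own strongest peak in the gene lay 5027 bp from that of replicate 2. At Ser (FBgn0004197; 3R, 27172090 to 27194267) the strongest reached 43.4, with a global IDR of 0.683. There replicate 1 gave 14.8 and replicate 2 28.1, and the strongest peaks of the replicates were 12792 bp apart. So at neither ligand gene did the replicates place their strongest peak at the same site.

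The modifiers fng and kuz had none either. Fringe (fng, FBgn0011591; 3L, 20925891 to 20949512) adds sugar to Notch and changes which ligand it answers to, and Kuzbanian (kuz, FBgn0259984; 2L, 13550139 to 13639411) is the protease that cuts Notch after ligand binding. At fng, −836 bp from its start, the strongest peak had a pooled signal of 49.7, with 32.0 and 29.5 in replicates 1 and 2 and a global IDR of 0.719. In kuz, at 89.3 kb the longest member, the strongest reached 54.2, with 26.7 and 31.3 in the replicates and a global IDR of 0.0409. Its site was shared, with the replicates' strongest summits 33 bp apart.

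In the nucleus, the DNA-binding partner Su(H) (FBgn0004837; 2L, 15039488 to 15043334) had the lowest values of all members. The strongest of its 7 ranked peaks was at 29.6, rank 40435, beyond the 3' end of the gene, with 7.18 in replicate 1 and 20.8 in replicate 2. At H (FBgn0001169; 3R, 20621938 to 20628915) the strongest peak, whose sequence is shown above, lay in a coding exon and had a pooled signal of 61.9, rank 4302 and a global IDR of 0.0431. In replicates 1 and 2 it was at 36.7 and 26.9. Among the members without a thresholded peak, H had the strongest ranked peak. The threshold is on IDR, not on signal, and kuz came nearest to it, at 0.0282 for 1 of its 3 ranked peaks under 0.05. The highest IDR of a thresholded peak was 0.00999.

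**Figure D3:**
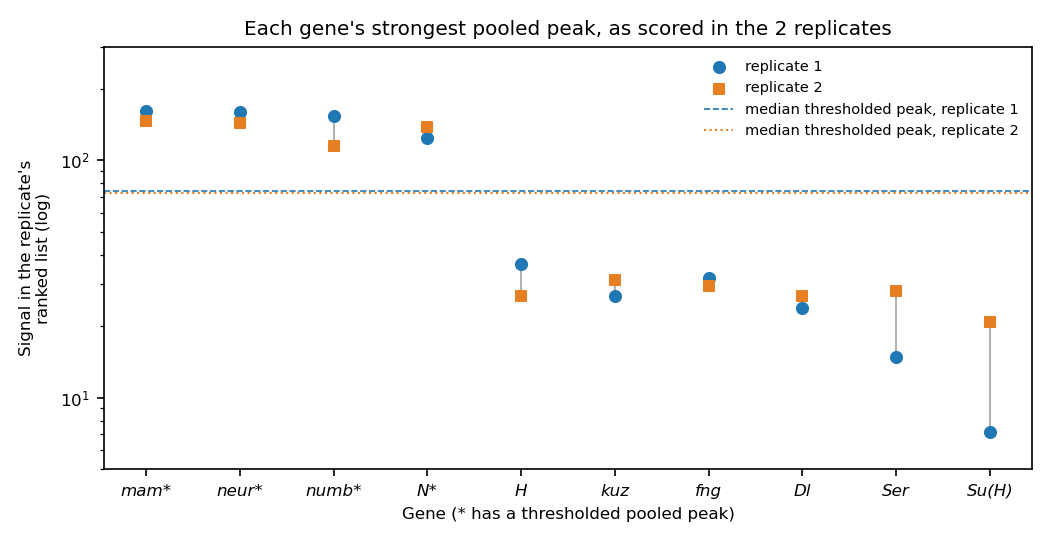
For each gene, the circle (replicate 1) and the square (replicate 2) give the signal, on a log axis, of the strongest peak in that replicate's ranked list that overlaps the gene's strongest pooled peak, and the lines mark the median thresholded peak of each replicate (74.3 and 72.7). The 4 genes with a thresholded peak sit at 115 to 161 in both replicates, and the other 6 at 7.18 to 36.7, so the 4 and the 6 do not overlap in either replicate, a split that having a thresholded peak already fixes in part.

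Between the replicates, 5 of the 9 member peaks (55.6%) overlapped a peak of each replicate's own set by at least 1 bp, against 1744 of 3551 pooled peaks on the arms (49.1%). Where the overlap had to cover at least 50% of the pooled peak, the order turned, with 4 of 9 (44.4%) against 47.1%. The 5 that overlapped by 1 bp are the strong ones, and 3 of the weak peaks at mam overlapped a peak of neither own set. Below the threshold, the 4 long members without a peak, Dl, Ser, fng and kuz, had strongest ranked peaks of 43.4 to 54.2, with a median of 49.7. Of the 1036 coding genes of at least 10 kb without a thresholded peak, 84 had no ranked peak and the other 952 had a median of 50.5, with quartiles at 43.9 and 57.5. Of these 4 members, Ser lay just under the lower quartile and the others lay between the quartiles. For coding genes under 10 kb without a thresholded peak, 8793 with a ranked peak had a median of 38.5 and quartiles at 30.7 and 46.7. The short members lay outside that range on either side, Su(H) at 29.6 and H at 61.9. The ranked list is dense everywhere, with 11.4 peaks per 10 kb over the members and 10.4 over coding genes of at least 10 kb.

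By position, 8 of the 9 member summits lay in introns, and 4 were over 5 kb from the start of any gene. Most of the intronic ones were at mam, which held 6 of the 9. Apart from that of N, the distant ones were weak peaks of mam, so these counts mainly describe 1 long gene. Over all pooled summits on the arms, 1743 of 3551 (49.1%) lay in introns and 624 (17.6%) over 5 kb from a start. Only numb and mam had a summit within 500 bp of one of their own starts, and 13.7% of coding genes did. No thresholded summit lay between 1 and 5 kb outside a member, and all 9 lay inside the gene body. The nearest ones beyond were 5280 bp from H, with a pooled signal of 138, nearest to the start of Pi3K92E, and 6144 bp from numb, at 252, nearest to that of scat.

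The bases around the 5 strong summits were A and T rich at some and not at others. Within 50 bp of the summit, the share of A and T was 79.2% and 60.4% at the stronger and weaker peak of the mam pair, beside the values for N, neur and numb given with their sequences. The mean of the 5 was 69.5 ± 8.09% (SD over summits), and that of the stronger pooled peaks was 68.6 ± 8.61%. At numb and the weaker mam peak the richest stretch was off the summit. It reached 76.2% in the window centred 120 bp before the numb summit.

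**Figure D4:**
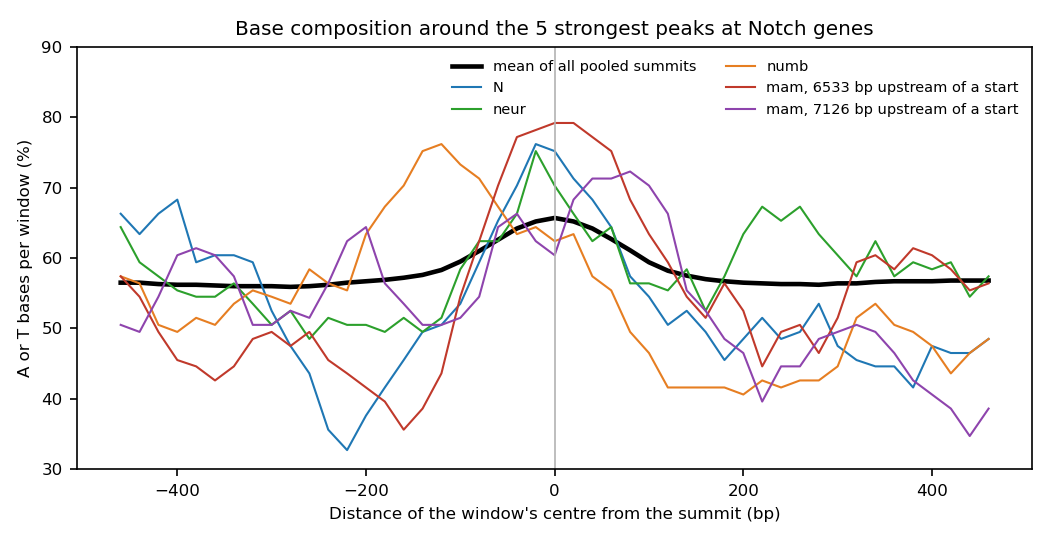
Lines give the percent of A and T bases in windows of 101 bp, in steps of 20 bp, by the distance in bp of the window's centre from the summit along the plus strand, for the 5 strongest peaks at N, neur, numb and mam and, in black, the mean of all pooled summits. The black line peaks at 65.7% at the summit, the stronger mam peak at 79.2%, and the numb line peaks before its summit.

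Short sequence motifs were searched on both strands in the same 101 bp windows. The Su(H) binding site, searched as CGTGGGAA, CGTGAGAA, TGTGGGAA and TGTGAGAA, was in 0 of 9 member windows and in 0.873% of all pooled windows. With 9 windows, of which 6 are at mam, a count of 0 says little about the share. The letters TATATTAA (3.86% of all), the DRE TATCGATA (0.873%), GAGAGA (3.21%) and AGATGGCG (1.21%) were also in 0 of 9. A TATA box, searched as TATAAA or TATATA, was in 2 of 9, at N and at 1 peak of mam, beside 27.9% of all windows. TATATTAA contains none of these TATA words, while TATATA and TATAAA can overlap each other. The E-box CANNTG was likewise in 2 of 9, at N and at 1 peak of mam, and in 34.0% of all.

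Genes that act with these 10 were described from a list of 51 further pathway genes, picked by role. A thresholded peak lay at 20 of 51 (39.2%), beside 22.7% of all coding genes. By length, it was 7 of 11 of at least 10 kb (47.8% of coding genes) and 13 of 40 shorter ones (18.6% of coding genes). The lists are small, and no test was made of them. The signals given below for these genes are means over the ranked lists of the 2 replicates. They are on a lower scale than the pooled signals given for the members. At dx, for example, the mean was 37.4 and the pooled signal 67.3. Over the strongest peaks of the 20 genes the median pooled signal was 155.

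Among ligand production and endocytosis genes, 1 of 11 had a peak, AP-2alpha, an adaptor subunit of clathrin coats, at 93.9 ± 25.4 (SD, n = 2). It lay −135 bp from the start of AP-2alpha and was shared with ebi. Here and below, shared means that the summit was also inside the other gene or within 500 bp of one of its starts. No peak was at mib1, mib2 or lqf, nor at any of the 7 Bearded family genes, which encode inhibitors of Neuralized. Both receptor glycosylation genes had one: rumi, a glucosyltransferase gene, at 80.1 ± 4.80, and O-fut1, the fucosyltransferase gene, at 39.1 ± 28.6 (SD, n = 2), the latter in the own set of 1 replicate. The first was shared with CG7029 and Usp12-46, the second with CysRS-m.

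Receptor cleavage genes had 2 of 8. These were Fur1, a furin protease gene, at 158 ± 5.45, and aph-1, of the gamma-secretase complex, at 85.7 ± 26.5 for the stronger of its 2 peaks (SD, n = 2). The peak at Fur1 was shared with Vps33B and that at aph-1 with Snx21. The other gamma-secretase genes, Psn, nct and pen-2, had none. Of 6 trafficking and ubiquitination genes, l(2)gd1, which acts in endosomal sorting of Notch, was at 369 ± 10.3 (SD, n = 2) and pooled rank 62, in a peak shared with Reps. The peak at dx, which encodes the ubiquitin ligase Deltex, was at 37.4 ± 11.9 (SD, n = 2) and in the own set of 1 replicate, and was shared with RpL7A.

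Nuclear co-factor genes had 4 of 7. The strongest was at gro, the co-repressor Groucho that Hairless recruits, at 233 ± 18.6 (SD, n = 2) and pooled rank 143, −123 bp from one of its own starts. The acetyltransferase gene nej followed at 139 ± 23.8 (SD, n = 2). At CtBP, the other co-repressor gene, and at Bx42 the values were 42.0 ± 11.6 and 32.9 ± 10.4 (SD, n = 2), with a peak in the own set of neither replicate. The peak at Bx42 was shared with Arfrp1 and that at nej with lncRNA:CR42657. Of the E(spl) bHLH genes and dpn, known targets of the pathway, 3 of 8 had a peak: E(spl)m3-HLH at 77.8 ± 14.8, E(spl)mdelta-HLH at 75.8 ± 4.96 and E(spl)m8-HLH at 49.6 ± 14.4 (SD, n = 2). The first was shared with lncRNA:CR43644 and the second with CG43116. The last lies 1390 bp downstream of the start of E(spl)m8-HLH, outside the gene, and within 1 kb of gro, so it is counted for both genes.

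Asymmetric division genes, which set numb to one side of a dividing cell or act beside it, had 6 of 9. The highest was in baz, of the apical polarity complex, at 365 ± 1.24 (SD, n = 2) and pooled rank 60, in an annotated 5' UTR 18699 bp downstream of the nearest start. Its partners par-6 and aPKC had 89.7 ± 0.765 and 52.6 ± 28.2, and insc, which links them to the spindle, had 62.7 ± 0.652 (SD, n = 2). The kinase gene aurA was at 43.7 ± 23.9 (SD, n = 2). At pros the signal was 59.5 in replicate 1, and the ranked list of replicate 2 held no overlapping peak. The peak at par-6 was shared with CG8188, that at insc with sktl and that at aurA with CG3281. No peak was at l(2)gl, pon or mira.

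**Figure D5:**
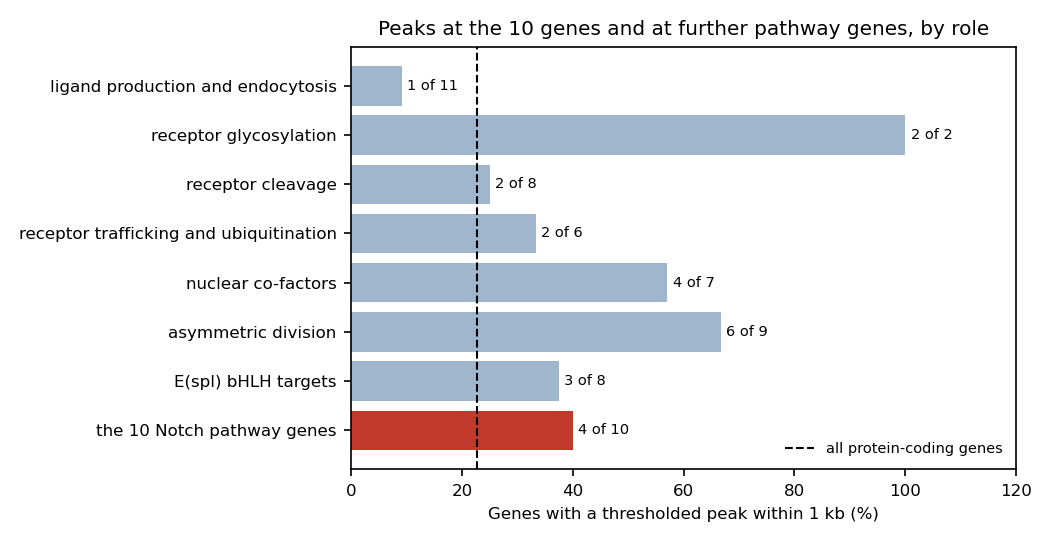
Bars give the percent of genes with a thresholded pooled summit within 1 kb for the 10 Notch pathway genes (red) and for the further pathway genes by role, with the counts beside them, and the dashed line marks all protein-coding genes at 22.7%. The shares run from 1 of 11 for ligand production and endocytosis to 2 of 2 for receptor glycosylation, and the groups hold 2 to 11 genes each. The line does not take gene length into account: for coding genes of at least 10 kb the share was 47.8%. Of the 10 Notch pathway genes 8 are that long, of which 4 have a peak. Of the 9 asymmetric division genes 5 are that long, of which 4 have a peak.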

How the data were processed

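Peak lists from ChIP-seq of CG4730-eGFP in 2 biological replicates were analysed. Per the labels, chromatin had been sonicated to 200 to 800 bp and the assembly is dm6. Read depth, aligner and peak caller are not given in the sources used here. Deposited signal values of peaks have no stated unit, and the authors' ranked lists give −log10 of the global IDR, in which an IDR of 1.0e-05 is the lowest value listed. In each ranked list 8 columns of compared inputs have no names and were not used.

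Genes, starts and features were taken from Ensembl release 115, sequence from RefSeq, both on this assembly. Dl was matched by the name Delta, and 2 further genes by synonym. Replicate values are those of the strongest peak in a replicate's ranked list overlapping the pooled peak by at least 1 bp, and SDs are over 2 replicates. Every member, every thresholded member peak and every further gene with a peak is named. Rules were tested on simulated data. Members, lists and motifs were chosen with earlier results of these data known. The length classes, inverted repeats, stretches without peaks and the count of genes with 6 or more peaks were chosen after the peaks had been seen. No test was run, since there is 1 group. Python 3.11.15, numpy 2.4.6, pandas 2.3.3 and matplotlib 3.10.9 were used. Alternatives were other peak sets, windows and overlaps.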

Additional observations from a re-analysis of the deposited data

How the results depend on the processing

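The same 4 members, N, neur, numb and mam, had a peak in the conservative set, with the stronger peaks, in each replicate's own set, with no window, with windows of 500 bp and 5 kb and with any overlap. The pooled ranked list at an IDR of 0.05 added kuz and H, which makes 6, and summits within 500 bp of a start left 2, numb and mam. The number of member peaks, 9, became 5 with the stronger peaks, 18 at an IDR of 0.05, 2 at starts, and 5 to 6 when a replicate was left out; with summits within 1 kb counted as 1, chosen after seeing the data, it was 7. Their median signal of 249 became 273 in the conservative set, 278 with the stronger peaks, 62.1 at an IDR of 0.05, 169 at starts and 133 to 153 in a single replicate, whose signals are on a lower scale. The share of coding genes, 22.7%, was 21.3% in the conservative set, 14.3% with the stronger peaks, 29.9% at an IDR of 0.05, 16.6 to 17.4% without a replicate, 10% with no window, 20.3% with 500 bp, 39.7% with 5 kb, 23.6% with any overlap and 13.7% at starts. For genes of at least 20 kb, a limit chosen after seeing the data, it was 53.7% against 47.8%. Further pathway genes with a peak numbered 12 with the stronger peaks, 6 with no window, 36 with 5 kb and 12 at starts, against 20. In windows of 100 bp to each side the Su(H) site was in 1 member window, GAGAGA in 1 and the E-box in 4. These moves follow from fewer or more peaks and narrower or wider windows by construction. No paired analysis was possible because there is 1 group and no result comes from a test between groups. Read depth was not given, so what it limits could not be stated.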

Other observations

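Long inverted repeats stood at or close to the summits of 2 of the strong peaks. In the 101 bp window at numb, a perfect inverted repeat with arms of 10 bp and 10 bp between them reached from 12 bp before to 17 bp after the summit, and an arm at least that long, with at most 30 bp between arms, was in 39 of 3551 pooled windows (1.10%). At the stronger mam peak the arms were 13 bp, 12 of these bases A or T, from 5 to 48 bp past the summit, and 3 of 3551 windows (0.0845%) held arms at least that long. The longest arms were 8 bp at N, 6 bp at neur and 5 bp at the weaker peak of the strong mam pair, where 93.5% of all windows held arms at least that long. The median over all windows was 6 bp. This feature was looked for after the numb sequence had been seen, and whether the protein binds it was not tested.

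The 5' end of kuz, its only annotated start included, lay in a stretch of 16.2 kb without any peak of the pooled ranked list, from −0.90 kb to 15.29 kb of the start. In the other members the longest such stretch was 1.24 to 3.64 kb. Annotated transposable elements cover 29.3% of the stretch and 6.75% of the gene, and the reference marks 47.3% and 23.8% as repeats. The ranked list of replicate 2 held 5 peaks there and that of replicate 1 held 0. The sources used here do not say how reads matching several places were handled, and the part of repeats in the result was not tested.

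The conservative set held a second peak at N that the pooled set lacked. Its summit was 203 bp from the strong one, and its signal was 7.68, rank 3216 of 3263.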
